A study of Homo sapiens with 6 samples.

Results

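The MYC, MAX and MXD/MLX network is a set of transcription factor genes that were taken here by symbol: MYC, MYCN, MAX, MXD1, MXD3, MXD4, MXI1, MNT, MLX and MLXIP, 10 of the 78932 genes listed in the deposited count files. All 10 symbols matched 1 Ensembl identifier each, and 9 of the 10 had enough reads to be tested. RNA was sequenced in 3 control and 3 MEF2C-OE libraries of KARPAS-45, a cell line from human T-lineage acute lymphoblastic leukaemia with a KMT2A-FOXO4 fusion. Control cells were labelled as wild type and untreated. MEF2C-OE cells had been transduced with a lentivirus that expressed MEF2C, a MADS-box transcription factor, from the EF1A promoter together with mCherry, and mCherry-positive cells were collected by sorting at 120 hours. The sources used here mention neither a vector nor a sort for the control cells. Since the labels call the replicates technical, a p-value here reflects only how much these libraries vary.

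Proteins of this network are basic helix-loop-helix leucine zipper factors that bind DNA as pairs, mostly at the E-box CACGTG. MAX is the common partner. MYC and MYCN pair with MAX to activate genes of growth, ribosome assembly and metabolism, whereas the MXD proteins, MXI1 and MNT pair with MAX and recruit SIN3 and histone deacetylases to repress genes with the same element. MLX is a second common partner, which pairs with MLXIP (MondoA), a sensor of glucose-derived metabolites, and also with MXD1, MXD4 and MNT. MYC is a central driver of T-cell leukaemia, where it is commonly induced by NOTCH1.

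The E-box itself occurred in the start-site windows of 3 members. RefSeq promoter windows on GRCh38.p14 each held 300 bases, from 250 before to 50 after an annotated start. They were found for 9 of the 10 members and came to 12 windows, as some genes have several. MYC had no window, so its promoter was not searched for any of the elements below. CACGTG was present in 3 of the 12, those of MXD4, MNT and MLX, and in 7.26% of all 35116 windows in the table. These 3 are shown 5′ to 3′ on the strand of the gene because they hold the element that the network's own proteins bind, with CACGTG in capitals. The windows are chr4:2262060-2262359 on the minus strand for MXD4, chr17:2401011-2401310 on the minus strand for MNT and chr17:42566850-42567149 on the plus strand for MLX.
MXD4: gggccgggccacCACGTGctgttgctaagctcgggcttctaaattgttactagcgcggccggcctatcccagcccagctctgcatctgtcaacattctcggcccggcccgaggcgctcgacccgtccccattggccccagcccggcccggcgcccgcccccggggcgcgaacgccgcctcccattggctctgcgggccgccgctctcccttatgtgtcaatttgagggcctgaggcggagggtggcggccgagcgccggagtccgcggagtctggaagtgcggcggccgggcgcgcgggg
MNT: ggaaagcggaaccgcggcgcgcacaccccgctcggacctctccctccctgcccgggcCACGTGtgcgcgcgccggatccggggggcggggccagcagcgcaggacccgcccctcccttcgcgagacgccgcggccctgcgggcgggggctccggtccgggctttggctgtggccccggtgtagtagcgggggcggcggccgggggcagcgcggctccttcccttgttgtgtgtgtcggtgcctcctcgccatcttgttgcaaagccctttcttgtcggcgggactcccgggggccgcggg
MLX: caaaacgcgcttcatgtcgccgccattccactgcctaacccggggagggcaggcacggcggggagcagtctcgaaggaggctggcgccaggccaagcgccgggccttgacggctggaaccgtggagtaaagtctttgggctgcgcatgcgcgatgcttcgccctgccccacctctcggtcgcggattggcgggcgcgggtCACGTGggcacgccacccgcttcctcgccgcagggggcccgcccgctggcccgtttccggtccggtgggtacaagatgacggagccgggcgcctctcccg
The element began 238, 193 and 50 bases before the start of MXD4, MNT and MLX. The related sequence CACGCG, searched on both strands, was in 2 of the 12 windows, 1 of MXD3 and 1 of MXI1, and in 11.4% of all windows. No member window held a match to the MEF2 site, searched on both strands, which 2.99% of all windows did. A match is a description of the letters in these windows only.

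Reads assigned to genes numbered 48218497 to 56890745 per library. MEF2C had 10, 1 and 0 reads in the control libraries and 40, 29 and 41 in the MEF2C-OE libraries, in the direction of the labels. The MEF2C-OE libraries thus had only 0.596 to 0.727 CPM (read counts scaled to the library size) of MEF2C. Its log2 fold change was 3.28, and 2.73 to 5.83 when 1 library was left out, so its size is uncertain. All 10 T-cell markers were present, with a summed level of 4240 to 4276 CPM in control and 3774 to 3915 CPM in MEF2C-OE libraries. Markers of B cells, myeloid, erythroid and epithelial cells and fibroblasts summed to at most 11.6 CPM per class and library, and MS4A1, CD22, HBB, EPCAM and DCN had no reads. Fewer cells of a type and less RNA per cell cannot be told apart in such bulk samples. Log2 fold changes followed gene composition, with a Spearman correlation across tested genes, which are not replicates, of -0.29 for GC content and 0.18 for transcript length. Changes of the members and of the genes named from lists are therefore also given from a second fit that takes the GC and length trend out of every library, called the composition-corrected fit. The part of that trend in the changes themselves was not tested.

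MYC fell by 0.31 on the log2 scale in MEF2C-OE cells, and MXD4 and MXI1, which encode repressors that compete for MAX, each fell by 0.18. The other 6 tested members did not pass the test. The share called lower was thus 3 of 9, against 20.2% of all 19086 tested genes (adjusted p under 0.05, edgeR quasi-likelihood test). No member was called higher, where 20.8% of all genes were. At an unadjusted p under 0.05, 5 members were lower and 0 higher by edgeR, 4 and 0 by DESeq2 and 5 and 0 by limma-voom. Groups were without overlap for 5 of the 9, against 48.8% of all genes. The median log2 fold change of the 9 was -0.09, and -0.01 over all tested genes. The composition-corrected median of the members was -0.01.

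**Figure D1:**
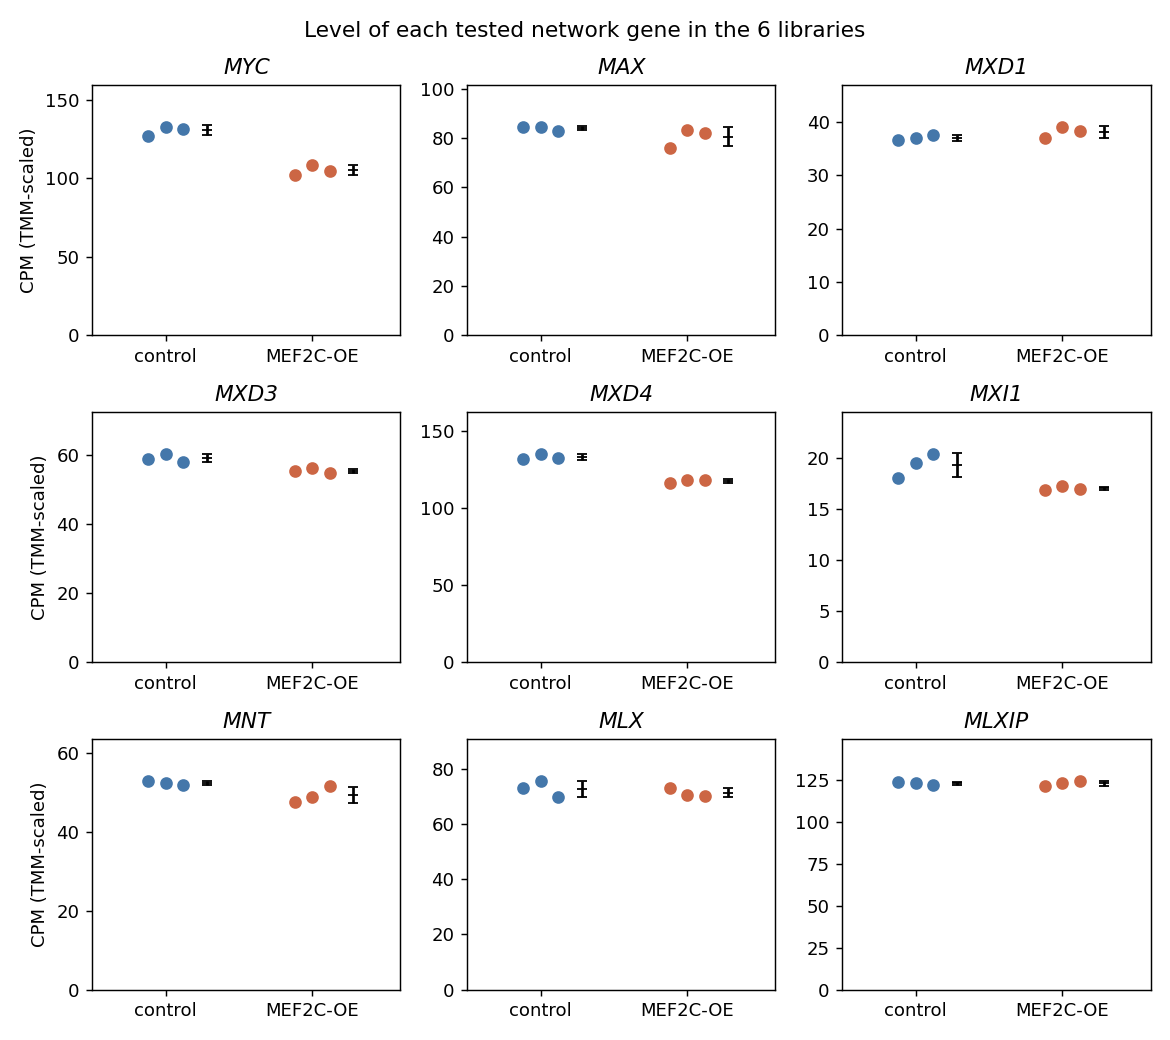
Level of each tested member in TMM-scaled CPM, with 1 point per library (3 control in blue, 3 MEF2C-OE in orange) and black bars for the mean and SD. All 3 MEF2C-OE points lie below all control points for MYC, MXD3, MXD4, MXI1 and MNT, while those of MLXIP coincide.

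MYC (ENSG00000136997.22, plus strand of chromosome 8, 127735434 to 127741434 in GRCh38) had 127, 133 and 132 CPM in the control libraries and 102, 109 and 105 CPM in the MEF2C-OE libraries. The lowest control library thus stood above the highest MEF2C-OE library. The means were 131 ± 3.17 and 105 ± 3.18 CPM (SD, n = 3), which edgeR fitted as -0.31 on the log2 scale (SE 0.030, adjusted p = 1.3e-11). This is a level 19.4% lower in MEF2C-OE, and 35.1% of all tested genes had a larger change in either direction. The composition-corrected log2 fold change was -0.21 (adjusted p = 1.1e-07), which is 1.51 times smaller on the log2 scale. A test against a change of 1.2-fold did not call MYC (adjusted p = 0.12).

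MYCN, the paralogue best known from neuroblastoma, had 0 reads in all 6 libraries. A count of 0 allows up to 3 reads, or 0.0527 to 0.0622 CPM at the depth of these libraries, for counting error only. MYCL, the third MYC gene and not among the 10 members, had 21 to 52 reads per library, with 0.657 ± 0.295 CPM in control and 0.630 ± 0.233 CPM in MEF2C-OE libraries (SD, n = 3). Its log2 fold change was -0.07 (SE 0.37, adjusted p = 0.91). MYC was thus the only MYC gene above 1 CPM in any of these libraries.

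MAX, the common partner (ENSG00000125952.21, minus strand of chromosome 14, 65006174 to 65102695), had 84.7, 84.6 and 83.0 CPM in the control libraries. The MEF2C-OE libraries had 76.2, 83.3 and 82.2 CPM. MEF2C-OE replicate 1 stood below the other 5 libraries, and the groups overlapped. The log2 fold change was -0.06 (SE 0.035, adjusted p = 0.16), with a 95% interval of -0.13 to 0.01, and it was -0.01 in the composition-corrected fit (adjusted p = 0.91).

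Among the repressor genes, MXD4 showed the smallest error relative to its change. Its protein is linked to quiescence and differentiation. MXD4 (ENSG00000123933.17, minus strand of chromosome 4, 2247432 to 2262294) had 132, 135 and 133 CPM in the control libraries and 116, 118 and 118 CPM in the MEF2C-OE libraries. The groups were well apart, and the log2 fold change was -0.18 (SE 0.028, adjusted p = 8.5e-07). In the composition-corrected fit the call ended (-0.06, adjusted p = 0.082).

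MXI1, which encodes a MAX-binding repressor also called MXD2, was the least abundant tested member. MXI1 (ENSG00000119950.21, plus strand of chromosome 10, 110207605 to 110287365) had 18.1, 19.6 and 20.4 CPM in the control libraries and 16.9, 17.2 and 17.0 CPM in the MEF2C-OE libraries. The control libraries spread more widely, and control replicate 1 lay nearest the other group. The log2 fold change was -0.18 (SE 0.067, adjusted p = 0.025), and the composition-corrected value was -0.22 (adjusted p = 0.0073). The call was lost when control replicate 2 (adjusted p = 0.069), control replicate 3 (0.14), MEF2C-OE replicate 1 (0.074) or MEF2C-OE replicate 3 (0.06) was left out, with log2 fold changes of -0.18 to -0.14.

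MXD3, whose expression is known to peak in S phase, had a direction that turned with the processing. MXD3 (ENSG00000213347.11, minus strand of chromosome 5, 177301461 to 177312757) had 58.9, 60.4 and 58.1 CPM in the control libraries and 55.5, 56.2 and 55.0 CPM in the MEF2C-OE libraries. All MEF2C-OE libraries were lower, but the change of -0.09 on the log2 scale (SE 0.038) did not pass (adjusted p = 0.057). The composition-corrected fit gave 0.115 and called the gene higher (adjusted p = 0.014). The GC content of its longest transcript is 61.3%, near the top decile of tested genes (61.4%). Of 5154 bases of annotated exon, 926 are shared with RAB24 on the same strand and 1158 with PRELID1 on the opposite strand, and the sources used here do not give the strand setting of the counting. Reads of MXD3 and PRELID1 may therefore not be told apart there. The counting left 3.31% to 3.46% of reads per library ambiguous between genes, so reads from shared bases may be missing from the MXD3 count.

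MNT, a broadly expressed MYC antagonist that binds both MAX and MLX, had 52.9, 52.3 and 51.9 CPM in the control libraries. The MEF2C-OE libraries had 47.6, 48.8 and 51.5 CPM, so that MEF2C-OE replicate 3 nearly reached the lowest control. The log2 fold change of -0.09 (SE 0.042) did not pass (adjusted p = 0.097), and was 0.06 after the composition correction (adjusted p = 0.26). Without MEF2C-OE replicate 3 MNT was called lower (-0.12, adjusted p = 0.044). MXD1, the founding MXD gene, which is induced in differentiating cells, had 36.6, 36.9 and 37.5 CPM in control and 37.0, 39.1 and 38.4 CPM in MEF2C-OE libraries. These groups overlapped, and MXD1 was the only tested member with a positive log2 fold change before the composition correction (0.04, SE 0.047, adjusted p = 0.5), after which it was -0.05.

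In the uncorrected fit the log2 fold changes nearest 0 were those of the MLX branch. MLX, the partner of MLXIP, had 72.9, 75.6 and 69.8 CPM in the control libraries and 73.2, 70.6 and 70.1 CPM in the MEF2C-OE libraries. The ranges overlapped, and the log2 fold change was -0.03 (SE 0.036, adjusted p = 0.57; 95% interval -0.10 to 0.04). MLXIP had 124, 123 and 122 CPM in control and 122, 123 and 124 CPM in MEF2C-OE libraries. The MLXIP groups spanned nearly the same range, and the 95% interval of the log2 fold change was -0.06 to 0.05. The composition-corrected values of MLX and MLXIP were 0.04 and 0.03 (adjusted p = 0.38 and 0.42), so that both signs turned without a call, and there MAX lay nearer 0. Of the 4259 exon bases of MLX, 770 are shared with PSMC3IP on the opposite strand.

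**Figure D2:**
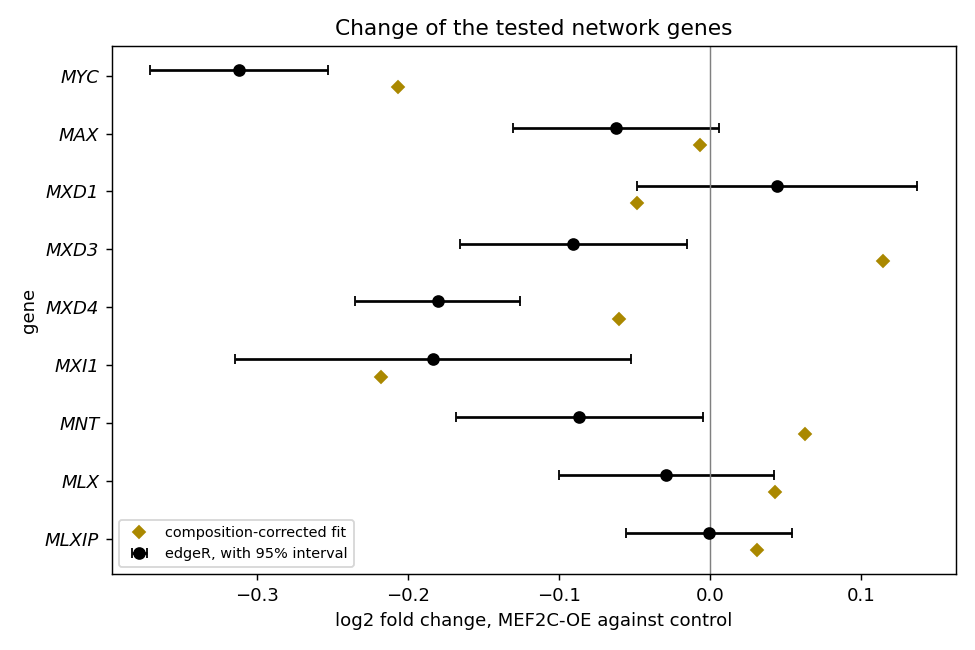
Log2 fold change of MEF2C-OE against control for the 9 tested members. Black points carry the 95% interval of the edgeR fit, and yellow diamonds give the composition-corrected value, which lies above 0 for MXD3, MNT, MLX and MLXIP, below 0 for MXD1, and at -0.21 for MYC.

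Levels were set against each other per exon length, as CPM per kilobase of annotated exon. In the control libraries MYC led with 43.5 ± 1.06 CPM per kb (SD, n = 3), followed by MAX with 19.0 ± 0.214 and MXD4 with 18.9 ± 0.249, whose ranges over libraries overlapped. MLX had a control level of 17.1 ± 0.679 CPM per kb, MXD3 11.5 ± 0.229 and MLXIP 8.85 ± 0.0753. MNT had 5.94 to 6.06 CPM per kb in these libraries, MXD1 5.83 ± 0.0753 and MXI1 4.21 ± 0.255. In the MEF2C-OE libraries MLX (16.7 ± 0.387 CPM per kb) stood above MXD4 (16.7 ± 0.161) and MXD1 (6.01 ± 0.171) above MNT (5.65 ± 0.231), and in both of these pairs the ranges overlapped. The order of the levels depends on the length used: divided by the longest transcript, MXD4 came second after MYC, and MAX was the fourth. Exon bases shared with other genes were kept in the exon lengths, so the levels of MXD3 and MLX may be understated.

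**Figure D3:**
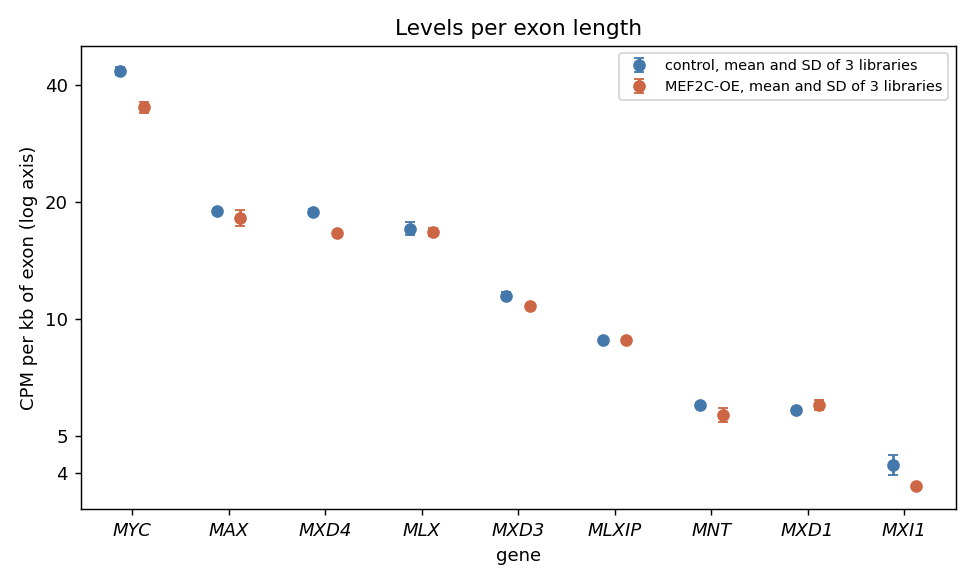
Level of the 9 tested members in CPM per kilobase of exon on a log axis, ordered by the control level. Points are means and bars the SD of 3 libraries per group. MYC stands above all other members in both groups, at 43.5 and 35.1 CPM per kb.

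Summed over the 6 detected members that pair with MAX (MYC, MXD1, MXD3, MXD4, MXI1 and MNT), the level per exon length was 88.2, 91.3 and 90.3 CPM per kb in control and 76.2, 79.3 and 78.1 in MEF2C-OE libraries. MYC made up 48.0%, 48.6% and 48.6% of this sum in control and 44.7%, 45.6% and 44.8% in MEF2C-OE libraries. The 5 repressor genes among the members together went from 46.4 ± 0.534 to 42.8 ± 0.537 CPM per kb (SD, n = 3), and MYC relative to that sum from 0.938 ± 0.0135 to 0.819 ± 0.0168. The lower repressor sum depends on which genes are summed. MGA, a further MAX-binding repressor gene that is not among the 10 members, had 10.8 ± 0.178 CPM per kb in control and 14.1 ± 0.140 in MEF2C-OE libraries (SD, n = 3). With MGA added, a choice made after seeing the data, the repressor sum was 56.8, 57.6 and 57.2 CPM per kb in control and 56.5, 57.1 and 57.2 in MEF2C-OE libraries, and the groups overlapped. MYC relative to the sum with MGA was 0.761 ± 0.0141 in control and 0.616 ± 0.0154 in MEF2C-OE libraries (SD, n = 3). In the ratios with and without MGA the 2 groups of libraries were apart. All these sums and ratios use levels without the composition correction, and corrected sums were not computed. In the corrected fit the log2 fold changes of MXD1, MXD3, MXD4, MXI1 and MNT were -0.05, 0.115, -0.06, -0.22 and 0.06. Those of MYC and MGA were -0.21 and 0.14. The sums are of transcript levels, given as a description with no test, and they say nothing of protein amounts.

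**Figure D4:**
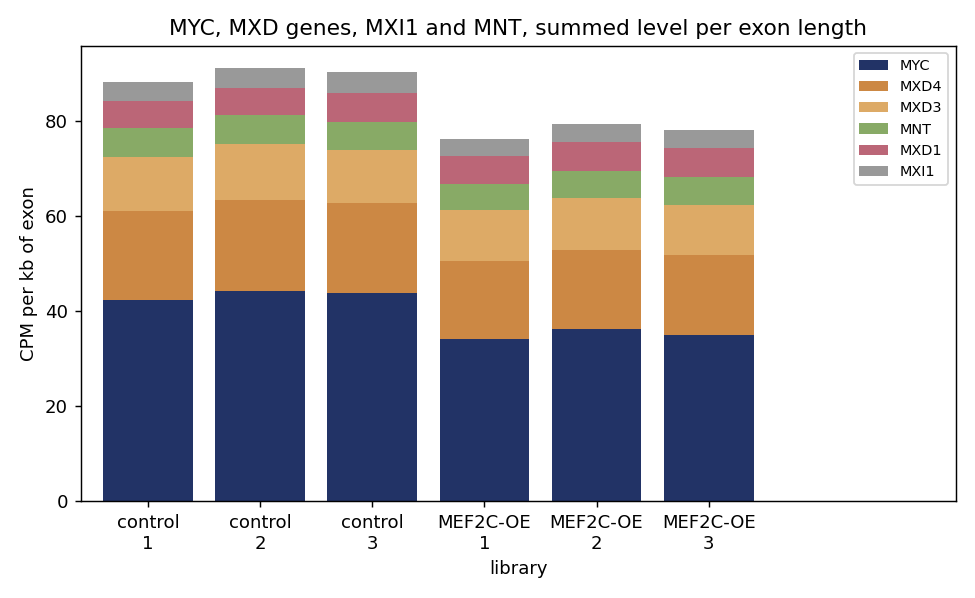
Stacked levels, in CPM per kilobase of exon, of the 6 detected members that pair with MAX (MGA, no member, is left out) in each of the 6 libraries. The MYC segment is 42.3 to 44.3 in the control bars and 34.1 to 36.2 in the MEF2C-OE bars, while the segments of MXD1, MNT and MXI1 are small in all bars.

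Of the further network genes, MGA, which encodes a very large MAX-binding repressor of the non-canonical Polycomb complex, rose. It had 193, 187 and 191 CPM in control and 252, 247 and 249.5 CPM in MEF2C-OE libraries, with no overlap (log2 fold change 0.39, SE 0.024, adjusted p = 3.8e-17). The composition-corrected change of MGA was 0.14 (adjusted p = 2.7e-06), 2.75 times smaller on the log2 scale. MYCBP2, a very large ubiquitin ligase first found as a MYC-binding protein, rose by 0.40, and by 0.16 in the composition-corrected fit, 2.49 times smaller. TCFL5, a bHLH gene expressed in testis and leukaemia, rose by 0.19, and by 0.29 in that fit. Of the 10 genes in this group 9 were found and 5 tested, of which 3 rose and 2 did not pass (60.0% called, against 41.0% of all tested genes). MLXIPL (ChREBP) had 0 to 5 reads per library. The lncRNA gene PVT1, next to MYC, had 1 to 5 reads per library. The 5 genes that overlap its exons in GENCODE 29 each cover at most 3.53% of them, but overlaps in the annotation used for counting were not checked, so no upper limit is given for PVT1.

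By the measure of likeness used, the root mean square difference of log2 CPM deviations over the 6 libraries, the genes closest to MYC among 9430 compared were SCRIB (0.016), ANAPC2 (0.018) and SRSF9 (0.018), with log2 fold changes of -0.30, -0.32 and -0.33. LEMD2 and STEEP1 were among the closest to MAX, with log2 fold changes of -0.06 and -0.04. With 2 groups of 3 libraries, this mostly finds genes with a change of like size.

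Among 25 genes that set the turnover of the MYC protein, all tested, 11 rose, 3 fell and 11 did not pass (56.0% called). Their median log2 fold change was 0.06. After the composition correction 11 rose and 3 fell, at a median of 0.02. The list joins ubiquitin ligases with deubiquitinases and other factors, so these counts have no single meaning for MYC protein. By comparison, 41.0% of all tested genes were called, 20.8% higher and 20.2% lower. CIP2A, an inhibitor of the phosphatase PP2A that protects MYC from degradation, had 70.9, 64.7 and 71.3 CPM in control and 108, 108 and 110 CPM in MEF2C-OE libraries. The CIP2A groups did not overlap, and the log2 fold change was 0.65 (SE 0.035, adjusted p = 2.1e-19; composition-corrected 0.56). On the log2 scale the deubiquitinase gene USP37 rose by 0.45 and the ubiquitin ligase gene HUWE1 by 0.36, with composition-corrected values of 0.28 and 0.20. PIM1, a kinase gene, had 4.72 ± 0.175 CPM in control and 3.54 ± 0.889 CPM in MEF2C-OE libraries (SD, n = 3), with -0.41 on the log2 scale (edgeR adjusted p = 0.019). Its call ended in the composition-corrected fit (-0.28), by DESeq2 (-0.41, adjusted p = 0.056), and without control replicate 1, MEF2C-OE replicate 1 or MEF2C-OE replicate 2 (-0.38, -0.35 and -0.27). FBXW7, the ligase often mutated in this leukaemia, had -0.05 (adjusted p = 0.3), but was called lower in the composition-corrected fit (-0.12, adjusted p = 0.013).

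Cofactor genes moved both ways. Of 22 genes of MYC-bound coactivators, all tested, 7 rose, 8 fell and 7 did not pass (68.2% called, median 0.00), where 20.8% of all tested genes were called higher and 20.2% lower. After the composition correction 8 rose and 6 fell. The acetyltransferase genes CREBBP and EP300 rose by 0.47 and 0.40 on the log2 scale (composition-corrected 0.43 and 0.33) and TRRAP, the scaffold of MYC-recruited acetyltransferase complexes, by 0.41 (0.31 corrected). KAT2A, the acetyltransferase of one such complex, fell by 0.50 on the log2 scale, with 71.4 ± 3.08 CPM in control and 50.3 ± 0.384 CPM in MEF2C-OE libraries (SD, n = 3, edgeR adjusted p = 2.7e-14), and by 0.33 after the correction. Of 20 genes of the SIN3 and HDAC corepressors that MXD proteins recruit, 10 rose, 4 fell and 6 did not pass (70.0% called, median 0.06), and after the correction 7 rose and 4 fell (median 0.01). NCOR1, which encodes a scaffold of HDAC3 complexes, rose by 0.43 on the log2 scale (composition-corrected 0.26), SAP30 by 0.25 (0.33 corrected), and the SIN3 subunit gene SINHCAF fell by 0.37 (-0.42 corrected).

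MYC-induced genes of the nucleolus and ribosome assembly were lower in MEF2C-OE cells. Of 37 tested, 27 fell, 0 rose and 10 missed the threshold (73.0% called, median -0.19). Over all tested genes 20.2% were called lower and 20.8% higher, with a median of -0.01. All 37 listed genes had a log2 fold change below 0. This list, like the others, was chosen with earlier results of these data known, so its one-sided count is a description only. At an unadjusted p under 0.05 edgeR gave 30 lower and 0 higher, DESeq2 27 and 0, and limma-voom 30 and 0. At an adjusted p under 0.05 DESeq2 and limma-voom each called 26 lower and 0 higher. The composition-corrected fit gave a median of -0.15, with 24 lower and 1 higher, NOC4L (0.17), named after its value was seen. FBL, the gene of the nucleolar methyltransferase fibrillarin, fell by 0.48 on the log2 scale (-0.36 corrected), and MYBBP1A, which encodes a nucleolar regulator of RNA polymerase I, by 0.46 (-0.31 corrected). GNL3, the gene of nucleostemin, fell by 0.37 (-0.40 corrected), with 116 ± 1.17 CPM in control and 90.0 ± 2.51 CPM in MEF2C-OE libraries (SD, n = 3, edgeR adjusted p = 1.7e-13). A readthrough gene shares exons with PPAN, and its effect on the count was not checked here, so the PPAN value is uncertain. PPAN fell by 0.37, and its call ended in the composition-corrected fit (-0.15). MYC and these genes fell in the same libraries, and no link between them was tested.

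MYC-induced genes of metabolism, chaperoning and the cell cycle moved both ways. Of 40 symbols 37 were tested, and 22 fell, 9 rose and 6 did not pass (83.8% called, median -0.16). Of all tested genes 41.0% were called, 20.2% lower and 20.8% higher. Each of the 8 lists had a larger share called than all genes, and the share of all genes was not matched for expression level. After the correction 19 of the listed genes fell and 10 rose (median -0.10). ENO1, a glycolytic enolase gene, had 1225 ± 14.6 CPM in control and fell by 0.60 on the log2 scale (edgeR adjusted p = 5e-26; -0.51 corrected). LDHA and HK2, also of glycolysis, each fell by 0.63 on the log2 scale (both -0.64 corrected), and HSPE1, the mitochondrial cochaperonin, by 0.50 (-0.44 corrected). Those that rose were ODC1, SHMT2, EIF4EBP1, CDC25A, MCM4, MCM5, AIMP2, TMEM97 and BCAT1, named after their values were seen, among which SHMT2, a serine and glycine enzyme gene, had 0.34 (0.47 corrected). The call of BCAT1 (0.22) ended after the correction (0.01). These MYC-induced genes thus did not share a direction.

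Among 16 tested genes listed here as repressed by MYC, 9 fell, 4 rose and 3 missed the threshold (81.2% called, median -0.24). The shares of all tested genes were 20.2% lower and 20.8% higher, with 41.0% called. In the composition-corrected fit 4 of the listed genes fell and 4 rose, at a median of -0.10. Whether MYC represses each listed gene in these cells, ID2 included, was not tested. PDGFRB, a growth factor receptor gene, had 3.84, 3.77 and 4.80 CPM in control and 0.636, 1.05 and 0.752 CPM in MEF2C-OE libraries. This difference of 5.12-fold (log2 fold change -2.36, SE 0.20, adjusted p = 2.9e-13; -2.27 corrected) was the largest among the genes of all 8 lists and rested on 35 to 244 reads per library. LGALS1, which encodes galectin-1, fell by 1.79 on the log2 scale and ID2, an inhibitor of E proteins, by 1.33, both at low levels (2.20 ± 0.531 and 3.10 ± 0.154 CPM in control), with corrected values of -1.60 and -1.23. CEBPA, a myeloid transcription factor gene, rose by 0.52 (0.75 corrected) at 3.30 ± 0.321 CPM in control.

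**Figure D5:**
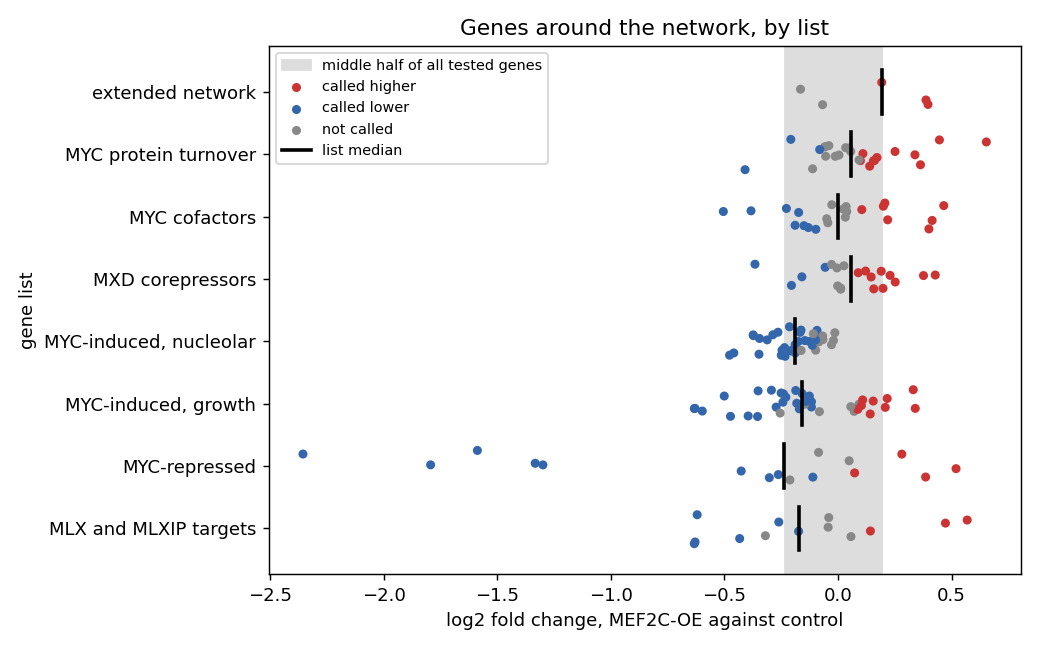
Log2 fold change (horizontal axis) of every tested gene in the 8 lists, coloured by whether the gene was called higher, lower or neither, with black bars for list medians and grey for the middle 50% of all tested genes (-0.23 to 0.19). The nucleolar genes all lie below 0, and PDGFRB is the point at -2.36.

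Targets of MLX with MLXIP or MLXIPL numbered 13 tested genes, of which 6 fell, 3 rose and 4 missed the threshold (69.2% called, median -0.17). The share called among all tested genes was 41.0%, with 20.2% lower and 20.8% higher. After the correction 6 of the targets fell and 3 rose (median -0.15). HK2 and LDHA also stand in the MYC-induced list. TXNIP, the best known MondoA target and a brake on glucose uptake, had 7.11, 8.90 and 6.63 CPM in control and 6.34, 5.08 and 5.34 CPM in MEF2C-OE libraries. The TXNIP ranges lay close together without overlap, at -0.43 on the log2 scale (SE 0.12, edgeR adjusted p = 0.0021; -0.46 corrected), and the call was lost without control replicate 2 (-0.30, adjusted p = 0.057). ARRDC4, the other classical MondoA target, had 0 reads in all 6 libraries. PFKFB3, which encodes a regulator of glycolysis, fell by 0.62 (-0.53 corrected), and the arrestin gene ARRDC3 rose by 0.57 (0.48 corrected).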

How the data were processed

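Each deposited file held raw counts of reads per gene, not normalized, made by the authors with Trim Galore, STAR and HTSeq on hg38, per the submitters' processing notes. Tool versions, strand setting, annotation release and filters were not given in the sources used here. HTSeq's 5 summary lines entered neither library sizes nor tests, and 70.9% to 71.3% of reads were assigned to genes. Symbols came from a table of gene names, and positions, exon lengths and GC content from GENCODE 29 (GRCh38), with GC content and length for 88.8% of tested genes.

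All 6 libraries were fitted with edgeR 4.0.16 in R 4.3.3, with its default count filter, TMM scaling, a robust quasi-likelihood test and Benjamini-Hochberg adjustment over 19086 genes. Genes were called at an adjusted p under 0.05. Shares of all tested genes were not matched to the members or lists for expression level. CPM of untested genes used library totals. Intervals are 1.96 standard errors, which were derived from the fold change and F. The composition-corrected fit has an offset from splines of 5 degrees of freedom on GC content and transcript length. Other alternatives included DESeq2 1.42.0, limma 3.58.1, other scalings and filters, a test against 1.2-fold, a replicate block and removal of each library. The test was checked on simulated counts. It recovered 6 of 50 genes changed 1.1-fold, 29 of 50 at 1.25-fold, 31 of 50 at 1.5-fold and 44 of 50 at 2-fold. Of 18886 unchanged genes it called 6. Most changes of 1.1-fold were thus missed there. The changed genes were drawn at any expression level, all genes shared a common dispersion, and most genes were left unchanged. In the data 41.0% of genes were called, so these rates do not give the power or error rate for the members.

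Members and the 8 lists were chosen with earlier results of these data known. Named were all members, MYCL, MGA, PVT1, TXNIP and ARRDC4, the called genes of each list with the largest change (up to 4, mean of 1 CPM or more), and the 3 genes of at least 10 CPM nearest to MYC and to MAX. FBXW7 and SHMT2 were chosen after their values were seen. A few of the nearest and list genes are not reported here. Figures were drawn with matplotlib 3.10.9.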

Additional observations from a re-analysis of the deposited data

How the results depend on the processing

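Of 144 comparisons of the 9 tested members with an alternative setting, 131 kept direction and side of the threshold, or changed sign without a call on either side. MYC stayed lower in all 16 alternatives (-0.33 to -0.21) and lost its call only in the test against 1.2-fold. That test called 0 members lower (1 at an unadjusted p under 0.05) and 1940 of all genes, and of the turnover, cofactor, corepressor, nucleolar, growth, repressed and MLX target lists it called 4, 5, 3, 3, 6, 4 and 5 genes, where the test of any change called 7821 genes and 14, 15, 14, 27, 31, 13 and 9. It asks for larger changes by construction. In the composition-corrected fit 1 member was higher, MXD3, which reversed to 0.115, MXD4 lost its call (-0.06), and 8 repressed genes were called. Upper-quartile scaling called 5 members lower, with MXD3 and MNT added (-0.11 and -0.10), and the filter of 1 CPM in 3 libraries added MXD3 (-0.10). The cause of these changes was not tested. Leaving out 1 library gave 2 to 3 members lower and 6898 to 7425 genes called. Replicate numbers did not pair the libraries, with correlations of same-numbered deviations of -0.05 to 0.02. With a replicate block 7798 genes and 3 members, all lower, were called. Counting depth limits MYCN, MYCL, MLXIPL and ARRDC4.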
